A study of Solanum lycopersicum with 6 samples.

Results

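Starch synthesis and breakdown genes were examined in epicotyls (the stem segment that follows the cotyledons) of young tomato plants under positive and negative DIF, the difference between day and night temperature. The set held 10 genes with 11 probes, of 34527 tomato genes and 43803 probes on the array. They were chosen by gene identifier from a list whose classes are ADP-glucose pyrophosphorylase (AGPase) subunits, starch synthases, branching enzymes, beta-amylases and glucan water dikinase. The list does not tie an identifier to a class. Here its order was read as 4 AGPase subunits, 2 starch synthases, a branching enzyme, 2 beta-amylases and a glucan water dikinase. That reading could not be checked, since the gene table used here names no tomato identifier of this form, so each class given below is an assignment by list order and isoforms are not named.

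Seedlings of the cultivar Managua RZ were raised at an equal day and night temperature and then kept for 7 d at 30°C by day and 25°C by night (positive DIF) or at 25°C by day and 30°C by night (negative DIF). Both treatments had a 16 h photoperiod with 300 μmol photons of light, and the seedlings carried no transgene or mutation that the labels name. Each treatment had 3 biological replicates of whole epicotyls aged 14 d, each on 1 one-colour array. Harvest fell in the light period, so the temperature at harvest and the sign of DIF cannot be told apart. The light period was longer than the dark period, so the daily mean temperature was also lower under negative DIF. It cannot be told apart from the sign of DIF. In whole epicotyls, fewer cells of a type and less RNA per cell cannot be told apart either. The epicotyl label was not checked against marker genes, because the gene table paired none of the marker identifiers with a name.

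Plants make starch in plastids. ADP-glucose pyrophosphorylase, built from large and small subunits, makes the sugar donor ADP-glucose and is known as a main control point of the pathway. Starch synthases add glucose from ADP-glucose to growing chains, and branching enzymes form the branch points. In breakdown, glucan water dikinase phosphorylates the granule surface, and beta-amylases release maltose from the chain ends. In green tissue starch is known to build up in the light and to be used at night, and stems can store it for a time.

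Between 62.2% and 67.0% of probes were well above background on an array, and no probe was saturated. Values below are the processed spot signal, or its log2 after subtraction of the array's 75th percentile, and differences are negative DIF minus positive DIF. Signals of different probes are not compared, since probes differ in brightness. Differences were tested over all probes with limma and Benjamini-Hochberg adjustment. Treatments follow the labels of the scanner files. In a separate table of log2 values, 6 of 6 column headings name the other treatment than the array whose rank order the column holds, and by those headings every sign below would turn. Slide and treatment overlap in part, because the first slide carried negative DIF replicates 1 and 2 and the second slide the other 4 arrays.

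Across the set, 2 genes had more signal in the negative DIF arrays with an unadjusted p below 0.05, an ADP-glucose pyrophosphorylase subunit (Solyc01g079790) and a starch synthase (Solyc03g083090), and no gene was lower. Neither passed an adjusted p under 0.05 in limma. The remaining 3 pyrophosphorylase subunits, the second starch synthase, the branching enzyme, the detected beta-amylase and the dikinase did not pass the unadjusted threshold, and their treatments overlapped. In counts, 2 of 11 probes were higher and 0 lower at the unadjusted threshold, against 10.2% and 8.72% of all probes. At the adjusted threshold 0 of 11 passed in either direction, against 0.425% of all probes higher and 0.495% lower. The 3 arrays of one treatment all lay above the 3 of the other for 2 of 11 probes, both higher under negative DIF, where 14.6% of all probes were separated in that direction and 12.4% in the other. The median log2 difference was 0.20 over the 11 probes and 0.07 over all probes.

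**Figure D1:**
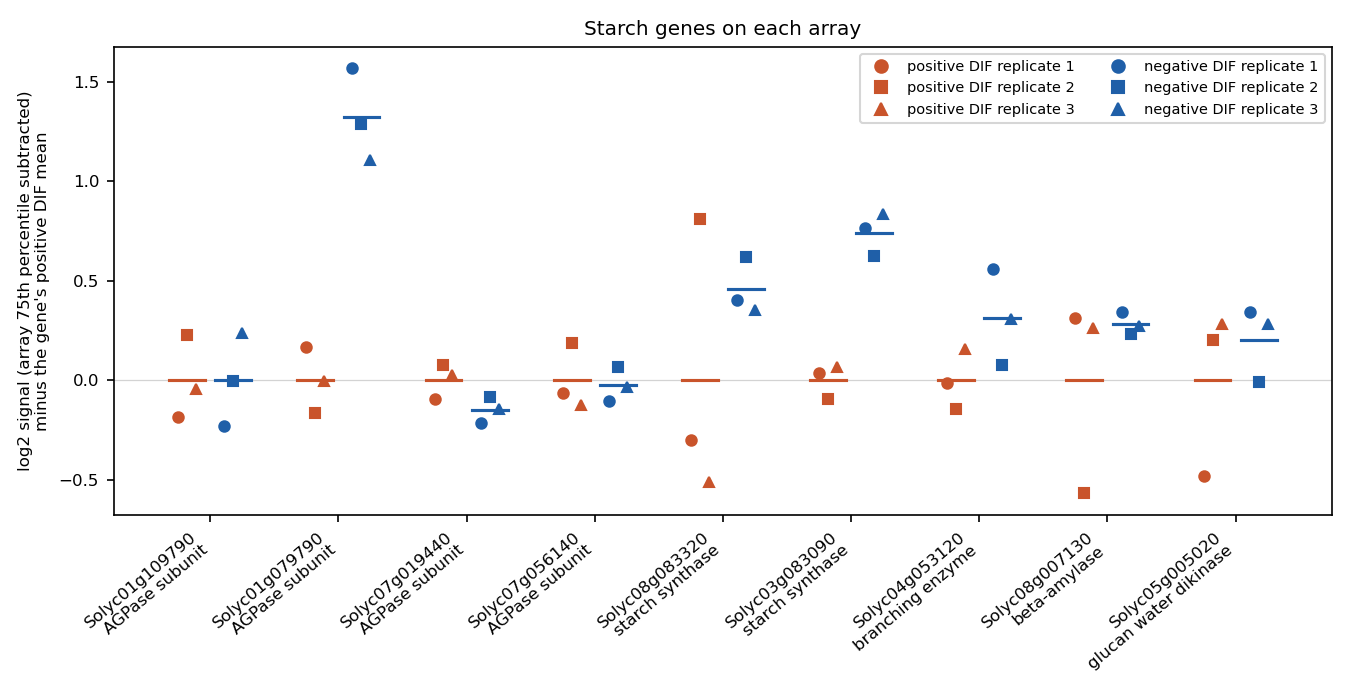
Signal of the 9 detected starch genes on each of the 6 arrays, as log2 after subtraction of the array's 75th percentile and of the gene's positive DIF mean. Orange points are positive DIF and blue points negative DIF, with a shape per replicate and a line at the mean (n = 3). Solyc01g079790 and Solyc03g083090 were the genes whose blue points all lay above the orange points.

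Of the 4 ADP-glucose pyrophosphorylase subunits, Solyc01g079790 differed most between treatments. Negative DIF replicates 1 to 3 gave processed signals of 8284, 5375 and 3913, and positive DIF replicates 1 to 3 gave 1924, 1603 and 1708. Every negative DIF array was thus brighter for this probe than every positive DIF array, and the positive DIF arrays were close to each other. Array brightness as a whole also differed. Its 75th percentile was 2417, 1900 and 1572 under negative DIF and 1481, 1553 and 1475 under positive DIF. After scaling, the treatments still did not overlap for this gene. On the scaled log2 scale negative DIF arrays averaged 1.53 ± 0.23 (SD, n = 3), and positive DIF arrays averaged 0.21 ± 0.17 (SD, n = 3). The difference was 1.32 (standard error 0.20, 95% interval 0.83 to 1.81), or 2.50-fold. In limma the unadjusted p was 5.4e-04, which became 0.0527 after adjustment. By p it ranked 448 among the 43803 probes. The unadjusted p was under 0.05 in all 14 alternative settings, with log2 differences from 1.10 to 1.43. The adjusted p was under 0.05 in 5 of the 14 and lay between 0.0109 and 0.499 over them. On the second slide alone, which held negative DIF replicate 3 and the 3 positive DIF arrays, the difference was 1.10. It rests on 1 negative DIF array and is the same contrast as slide as a fixed block, already among the 14 settings.

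The other 3 subunits stayed close to the same signal in both treatments. Solyc01g109790 had processed signals of 25726, 23646 and 23084 under negative DIF and 16281, 22688 and 17919 under positive DIF. After scaling, the log2 values ran from 3.41 to 3.88 under negative DIF and from 3.46 to 3.87 under positive DIF, so the treatments overlapped almost fully. Its log2 difference was -0.0013 (standard error 0.21, 95% interval -0.51 to 0.51, adjusted p = 0.998 from limma). Solyc07g019440 read 13486, 11614 and 9183 under negative DIF and 9004, 10575 and 9750 under positive DIF. Its replicates were among the tightest of the set, with SDs of 0.07 and 0.08 on the log2 scale (n = 3 each), and the treatments overlapped by a small margin. The log2 difference was -0.15 (standard error 0.16, 95% interval -0.55 to 0.24, adjusted p = 0.711 from limma), and it was below 0 in all 14 alternative settings. Solyc07g056140 read 53084, 46956 and 36290 under negative DIF and 33617, 41923 and 32040 under positive DIF. Its scaled values overlapped, and the log2 difference was -0.03 (standard error 0.18, 95% interval -0.46 to 0.40, adjusted p = 0.942 from limma). For each of these 3 genes the interval left out a change as large as that fitted for Solyc01g079790.

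Since scaling between arrays acts on all probes of an array alike, the ratio of Solyc01g079790 to the mean of the other 3 subunits was also taken within each array, a comparison chosen after the values were seen. Set to a mean of 0 over the positive DIF arrays, the log2 ratio in negative DIF replicates 1 to 3 was 1.75, 1.30 and 1.09, and in positive DIF replicates 1 to 3 it was 0.28, -0.33 and 0.05. The treatments did not overlap, and the mean difference was 1.38. Because the gene was picked for its difference, the ratio is given as a description with no test.

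Of the starch synthases, Solyc03g083090 was separated between treatments on every array. Its processed signal was 14960, 10706 and 10214 under negative DIF and 5523, 5301 and 5609 under positive DIF. Both treatments had tight replicates, at 2.61 ± 0.10 (SD, n = 3) and 1.87 ± 0.08 (SD, n = 3) on the scaled log2 scale. The log2 difference was 0.74 (standard error 0.17, 95% interval 0.34 to 1.15), or 1.67-fold. In limma the unadjusted p was 0.00394, which became 0.0952 after adjustment. The unadjusted p was under 0.05 in all 14 alternative settings, with log2 differences from 0.70 to 0.83, and the adjusted p, between 0.0306 and 0.579, was under 0.05 in 5 of them. On the second slide alone, with replicate 3 as the only negative DIF array, the difference was 0.83. This too is the contrast of slide as a fixed block, already among the 14 settings.

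The other starch synthase, Solyc08g083320, had the widest spread of the set. Its processed signal was 18168, 16652 and 11426 under negative DIF and 6851, 15474 and 5888 under positive DIF. Positive DIF replicate 2 stood with the negative DIF arrays, and after scaling it was the highest of all 6 at 3.32, while the other positive DIF arrays were at 2.21 and 2.00. The SD on the log2 scale was 0.14 under negative DIF and 0.71 under positive DIF (n = 3 each). The log2 difference was 0.46 (standard error 0.37, 95% interval -0.43 to 1.35, adjusted p = 0.588 from limma). Without positive DIF replicate 2 it was 0.86, where limma gave an unadjusted p of 0.0099 and 0.175 after adjustment, the lowest adjusted p over its alternatives, which ran up to 0.909. The within-array log2 ratio of Solyc03g083090 to Solyc08g083320 differed by 0.28 between treatments, less than its SD of 0.79 under positive DIF (n = 3). A two-sided exact permutation test gave p = 0.800. With 3 against 3 arrays that test cannot give a p below 0.100, so it cannot decide whether the 2 synthases differ in their change.

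The branching enzyme Solyc04g053120 read 11442, 6434 and 6248 under negative DIF and 4699, 4510 and 5265 under positive DIF. After scaling, negative DIF replicate 1 was highest at 2.24, and negative DIF replicate 2, at 1.76, lay below positive DIF replicate 3 at 1.84. The log2 difference was 0.32 (standard error 0.20, 95% interval -0.17 to 0.81, adjusted p = 0.468 from limma), and it was above 0 in all 14 alternative settings without passing an unadjusted p under 0.05 in any.

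**Figure D2:**
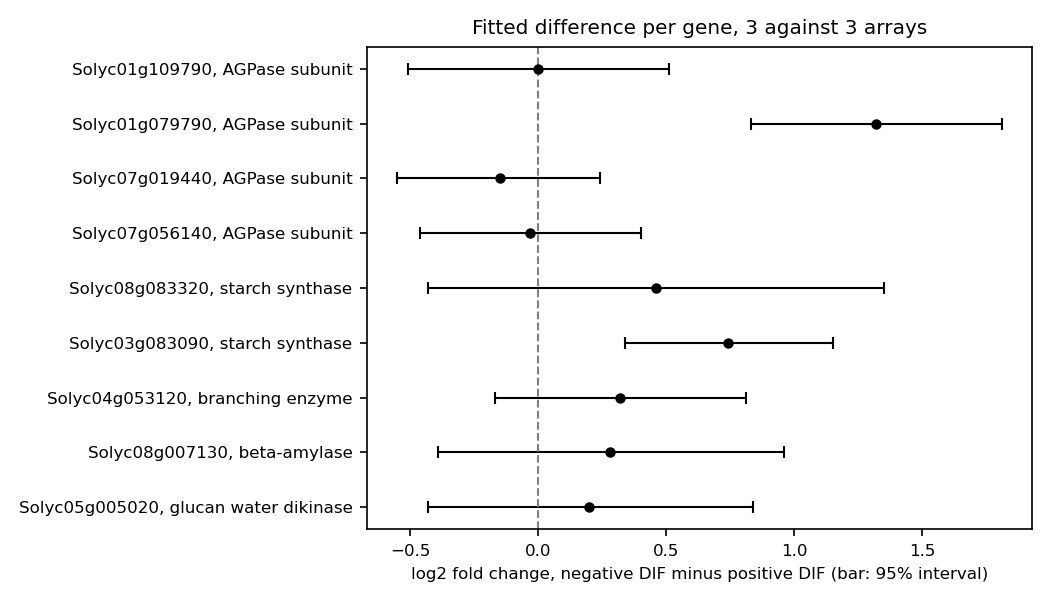
Log2 difference, negative DIF minus positive DIF, of the 9 detected starch genes (points) with the 95% interval from limma (bars, 3 against 3 arrays). The intervals of 2 genes lie above 0, those of Solyc01g079790 and Solyc03g083090, and the intervals of the other 7 include 0.

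On the breakdown side, the glucan water dikinase Solyc05g005020 read 16040, 9884 and 9978 under negative DIF and 5561, 9360 and 9396 under positive DIF. Positive DIF replicate 1 was the lowest array after scaling, at 1.91, and the other 5 arrays lay between 2.38 and 2.73 and were mixed between treatments. The log2 difference was 0.20 (standard error 0.26, 95% interval -0.43 to 0.84, adjusted p = 0.784 from limma), and it was -0.04 without positive DIF replicate 1. The beta-amylase Solyc08g007130 was well above background on all 6 arrays, with signals of 343, 249 and 212 under negative DIF and 206, 117 and 197 under positive DIF. Here positive DIF replicate 2 was apart, at -3.73 after scaling, and the other 5 arrays lay between -2.93 and -2.82. The log2 difference was 0.28 (standard error 0.28, 95% interval -0.39 to 0.96, adjusted p = 0.678 from limma), and without positive DIF replicate 2 it was -0.0044. The other beta-amylase, Solyc09g091030, had 2 probes, neither of which was well above background in any of the 6 samples. Their signals ran from 3.19 to 5.08, so no fold is given for this gene.

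The 9 detected genes differed in how closely replicates agreed. The SD over 3 arrays ran from 0.06 to 0.24 on the log2 scale under negative DIF and from 0.08 to 0.71 under positive DIF, where the medians over the 25327 probes detected on all arrays were 0.20 and 0.28. Positive DIF replicate 2 held the highest or the lowest value of 7 of the 9 genes, the highest of 3 and the lowest of 4, while it held an extreme value of 29.8% of all detected probes. Negative DIF replicate 1 held an extreme of 6 of the 9, against 45.7% of all detected probes. These array counts were made after the values were seen. Of the 9 intervals, 6 stayed within a log2 difference of 1 on either side of 0, and those of Solyc01g079790, Solyc08g083320 and Solyc03g083090 did not.

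**Figure D3:**
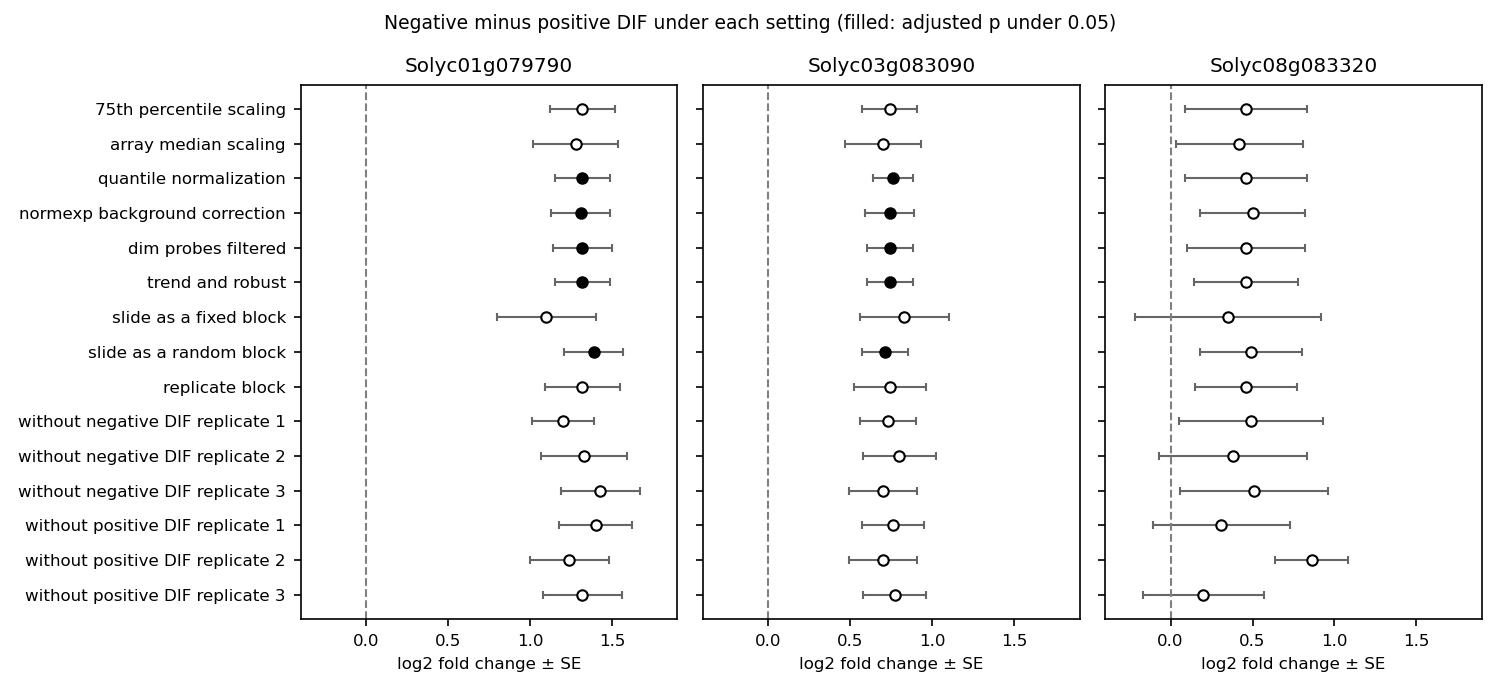
Log2 difference, negative DIF minus positive DIF, with its standard error under each setting for a pyrophosphorylase subunit (Solyc01g079790) and both starch synthases (n = 3 arrays each treatment, less the array left out). Filled points have an adjusted p under 0.05. All points of Solyc01g079790 and Solyc03g083090 lie at 0.70 or above, and the point of Solyc08g083320 moves to 0.86 without positive DIF replicate 2.

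A further list of 12 identifiers entered as starch pathway genes, whose annotation could not be checked here, was counted in the same way. All 12 were well above background on every array. With limma, 1 of 12 had an unadjusted p below 0.05 and was higher under negative DIF, with 0 lower, shares no larger than the 10.2% and 8.72% of all probes, and 0 passed the adjusted threshold. The treatments were separated for 1 gene in each direction, where 14.6% and 12.4% of all probes were. The higher gene, Solyc09g009190, read 6841, 5288 and 4838 under negative DIF and 1843, 3224 and 2762 under positive DIF, without overlap. Its log2 difference was 0.78 (standard error 0.24, adjusted p = 0.165 from limma). The unadjusted p was 0.0171, and it was 0.0541 without negative DIF replicate 3 and 0.0666 with slide as a fixed block. The gene separated in the other direction, Solyc08g005780, read 2713, 2089 and 1907 under negative DIF and 2000, 2099 and 1983 under positive DIF. Those signals overlapped before scaling, and after it the log2 difference was -0.24 (standard error 0.16, adjusted p = 0.494 from limma). It lies outside the rule for named genes and was named after its values were seen. The median log2 difference over the list was 0.22, and 10 of the 12 were fitted above 0, against 25189 of all 43803 probes. That count over all probes includes those not above background. Of the 11 probes of the starch set itself, 6 were fitted above 0 and 5 below.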

How the data were processed

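Total RNA from epicotyls was labelled with Cy3, hybridised to a custom tomato array and read by the authors with Agilent Feature Extraction 10.10.1.1, per the file headers. The deposited intensity values had the background subtracted array by array, with no scaling between arrays. A second deposited table, with normalized log2 values of 33614 genes, was used only to check its headings (rank correlation 1.000 with an array of the other treatment for each of 6 columns, over 26865 genes with a single probe).

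Spots that were controls or carried outlier flags were dropped, and processed signals were put on the log2 scale relative to each array's 75th percentile. All 43803 probes were fitted with limma 3.58.1 in R 4.3.3, with treatment as the term and Benjamini-Hochberg adjustment, and probes of a gene were kept apart. The fit was tested on simulated data with independent errors, no slide effect and shifts larger than any fitted for a starch gene. That test does not cover differences of the size reported here. Tables and plots used Python 3.11.15 and pandas 2.3.3, and exact permutation tests scipy 1.17.1. The precision is limited by the 3 arrays per treatment.

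The members, the further list and the tests were chosen with earlier results of these data known. All members were named, and of the further list those past the unadjusted threshold. That list of 13 identifiers, 12 of them on the array, stood in for a search by description, because the gene table (SLM_r2.1) names no such identifier. Alternatives were array median scaling, quantile normalization, normexp with an offset of 50 on the median spot signal, a filter that left 26942 probes, trend and robust variance, a slide block (fixed, then random), a block for replicate number, and each array left out in turn.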

Additional observations from a re-analysis of the deposited data

How the results depend on the processing

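Of 126 alternative values for the 9 detected starch genes, 108 kept their direction and their side of the adjusted threshold, and the 10 that came to pass it were those of Solyc01g079790 and Solyc03g083090 in 5 settings. The number of starch probes at an adjusted p under 0.05 in limma, 0 of 11, was 2 with quantile normalization, normexp, dim probes filtered, trend and robust variance, or slide as a random block, and 0 in the other settings. In those 5 settings the count over all probes, 403, was 1266, 2157, 1993, 1810 and 3017. It was 0 with slide as a fixed block, 0 with the replicate block and 0 to 567 with 1 array left out. The random block estimated a within-slide correlation of -0.216, and a negative value makes the errors smaller. Unadjusted, 2 starch probes were higher in every setting except without positive DIF replicate 2, where 3 were. In the further list the 1 higher gene became 0 with slide as a fixed block, and 0 to 2 with 1 array left out.

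The direction turned 8 times, for genes with small differences. With 1 array left out, Solyc01g109790 ran from -0.12 to 0.11, Solyc07g056140 from -0.09 to 0.07, Solyc05g005020 from -0.04 to 0.34 and Solyc08g007130 from -0.0044 to 0.44. Solyc01g109790 was at 0.23 with slide as a fixed block. The cause was not tested.

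With normexp the median log2 difference of all probes was -0.19 in place of 0.07. Samples with the same replicate number deviated together with correlations of 0.04 to 0.22, against -0.31 to 0.27 for different numbers, so the numbers were not taken as pairs. With the replicate block Solyc01g079790 had an adjusted p of 0.112 and Solyc03g083090 of 0.222 in limma.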
